A study of Mus musculus with 6 samples.

Results

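Heat shock chaperones are proteins that fold, hold or refold other proteins, and their genes are a classical readout of protein stress. The 9 genes described here were taken by symbol, among 31017 gene symbols in the deposited matrices: Hspa1a, Hspa1b, Hspa8, Hsph1, Hspd1, Hspe1, Hsp90aa1, Dnajb1 and Hspb1. All 9 had unique molecular identifiers (UMIs, each marking a captured transcript molecule) in every library. They were chosen by symbol with earlier values of these data known, among them higher Hspa1a and Hspa1b in aged lymphatic endothelium and higher Hspa1b in aged muscle. Values by age are therefore a description: no p-value is printed for a gene. Counts of genes past a threshold stand beside the share of all genes unless said otherwise, and nothing is read from them. The question was whether the genes differ between whole libraries, between cell types, or both.

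Single-cell RNA was sequenced from collecting lymphatic vessels of the dermis, the muscular and valved vessels that pump lymph, dissected from C57BL/6 mice together with cells around them. Young mice were 6 weeks old, middle-aged mice 12 months and aged mice 18 months, and each age had 1 library labelled male and 1 labelled female. In every library Evans Blue dye was injected into the inguinal lymph node, and the vessels were kept on ice, digested warm with collagenase, elastase, dispase and DNase, and freed of red cells by ACK lysis. The labels name no transgene, and no treatment beyond the anaesthetic and the dye. The aged mice had a supplier of their own, so age and supplier cannot be told apart. The labels do not say how many mice went into a library, so p-values measure only the spread between these 6 libraries.

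Both middle-aged libraries went against their sex labels. UMIs scaled to a common library total (CPM) of Xist, the RNA of the inactive X chromosome, came to 1402 in the library labelled middle-aged male, and those of Y-linked genes to 265 in the library labelled middle-aged female. No direction is drawn from sex here. Barcodes with at least 500 genes and at most 10% mitochondrial UMIs numbered 24488, from 999 in the library labelled middle-aged female to 8228 in young male. Median depth was 7508 UMIs per cell in the library labelled middle-aged female and 2536 to 4188 in the other 5. Library pairs shared 0 to 12 barcodes. A marker gate placed 20989 cells in a cell class. Fibroblasts, macrophages, blood endothelium and T and NK cells had at least 20 cells in every library. Lymphatic endothelium, the lining of the vessel, had 13, 20, 18, 76, 87 and 4 cells in 6 libraries, listed as the young pair (male, female), the libraries labelled middle-aged male and middle-aged female, and the aged pair (male, female). Smooth muscle, the pump in the vessel wall, had 88, 12, 47, 30, 28 and 3 cells. Every list of 6 values below keeps this order of libraries.

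As background, the heat shock factor HSF1 is held inactive by chaperones in unstressed cells. When unfolded proteins draw the chaperones away, HSF1 forms trimers and binds heat shock elements, which are repeats of the unit NGAAN in alternating orientation. Hspa1a and Hspa1b encode stress-inducible Hsp70 and are the best known targets, while Hspa8 encodes their constitutive relative Hsc70. Dnajb1 encodes an Hsp40 that delivers substrates to Hsp70, and Hsph1 encodes Hsp110, the exchange factor that resets it. Hsp90aa1 encodes the inducible cytosolic Hsp90, Hspd1 and Hspe1 the barrel and the lid of the mitochondrial chaperonin, and Hspb1 the small heat shock protein Hsp27, which holds unfolding proteins and acts on actin. Warm enzymatic digestion of tissue is known to induce several of these genes in single-cell work.

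The promoters were searched for letters that match the elements HSF1 is known to bind. RefSeq promoter windows on GRCm38.p6, from 250 bases before to 50 bases after a start site, were found for 7 of the 9 genes, in 10 windows. Hspa8 and Hsp90aa1 are named only. Capitals mark a short element, GAANNTTC or TTCNNGAA, forms that read the same on both strands and can overlap. The 250 bases before the start are given for Hspa1a (chr17:34972157-34972406, minus strand), Hspa1b (chr17:34959239-34959488, minus strand) and Hspb1 (chr5:135887669-135887918, plus strand). For Hsph1 (chr5:149636351-149636380, minus strand) and Hspe1 (chr1:55088053-55088082, plus strand) 30 bases before the start are given, which hold all elements found in Hspe1 and the first of those in Hsph1.
Hspa1a: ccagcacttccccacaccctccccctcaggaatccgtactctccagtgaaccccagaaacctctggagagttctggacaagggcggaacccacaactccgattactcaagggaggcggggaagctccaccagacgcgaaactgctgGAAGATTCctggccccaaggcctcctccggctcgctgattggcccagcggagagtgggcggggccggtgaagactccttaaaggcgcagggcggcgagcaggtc
Hspa1b: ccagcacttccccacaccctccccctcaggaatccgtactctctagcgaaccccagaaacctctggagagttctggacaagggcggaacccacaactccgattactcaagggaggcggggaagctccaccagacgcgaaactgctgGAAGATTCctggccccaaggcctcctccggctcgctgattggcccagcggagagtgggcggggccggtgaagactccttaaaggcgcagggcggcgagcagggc
Hspb1: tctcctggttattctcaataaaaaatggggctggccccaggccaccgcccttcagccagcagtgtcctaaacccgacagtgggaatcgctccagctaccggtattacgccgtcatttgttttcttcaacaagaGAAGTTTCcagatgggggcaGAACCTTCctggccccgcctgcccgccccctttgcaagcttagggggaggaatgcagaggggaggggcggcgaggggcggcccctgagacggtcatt
Hsph1: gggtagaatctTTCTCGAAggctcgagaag
Hspe1: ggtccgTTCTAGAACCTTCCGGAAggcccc

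Hspa1a and Hspa1b carried the same short element, which began at position -104 from the start in both. Hspb1 had elements beginning at -117 and -97, and Hsph1 had one at -33 before its start. Hsph1 also had overlapping elements after its start, at 37 and 42, which made the long form, GAANNTTCNNGAA or TTCNNGAANNTTC. In Hspe1, elements at -89, -84 and -79 ran into each other and so made the long form as well. The same DNA lies at -144, -139 and -134 of an alternative start of Hspd1, the head-to-head neighbour of Hspe1. A short element was found in 7 of the 10 windows, for 6 of the 7 genes, against 15.1% of all 32851 windows of this length. The long form was found in 4 windows, of Hsph1, Hspd1 and Hspe1, against 0.603% of all windows. Windows of these genes are not separate stretches of DNA. Both Hsph1 windows overlap and hold the same elements, Hspd1 and Hspe1 share theirs, and the Hspa1a and Hspa1b windows are near-identical. Dnajb1 had neither form in these windows. A match describes letters only.

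Hspa1a (chromosome 17, 34969190 to 34972156 on GRCm38) and Hspa1b (34956436 to 34959238) lie 9951 bases apart on the minus strand, and their promoter windows were 98.7% identical. They are near-identical copies, so the split of reads between them is uncertain and their sum is given as well. Hspa8 (chromosome 9, 40800984 to 40810087), Hspd1 (chromosome 1, 55077835 to 55088243) and Hspe1 (chromosome 1, 55088132 to 55091307) have processed copies elsewhere in the genome, with which reads may have been shared. Hsph1 (149614287 to 149636376) and Hspb1 (135887919 to 135889563) lie on chromosome 5, Hsp90aa1 (110690605 to 110702728) on chromosome 12 and Dnajb1 (83608193 to 83612653) on chromosome 8. Over the kept barcodes Hspa8 was counted most often, with 154973 UMIs, and Hsph1 least often, with 5912.

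Inducible Hsp70 differed widely between libraries. In fibroblasts, the collagen-making cells around the vessel, Hspa1a and Hspa1b together stood at 120.5, 237, 283, 199, 373 and 97.7 CPM. Aged male was highest and aged female lowest. In macrophages, the tissue phagocytes, the sum was higher than in fibroblasts of the same library all 6 times, at 378, 1140, 907, 395, 1449 and 205 CPM. The aged pair again held both ends, so the young and aged libraries overlapped. In blood endothelium the sum was 325, 243, 603, 385, 1610 and 271 CPM. Aged male stood apart there, and the other 5 libraries lay within 243 to 603 CPM. In T and NK cells the sum was 108, 202, 167, 11.9, 635 and 17.7 CPM. Aged male was the highest library in all 4 classes.

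**Figure D1:**
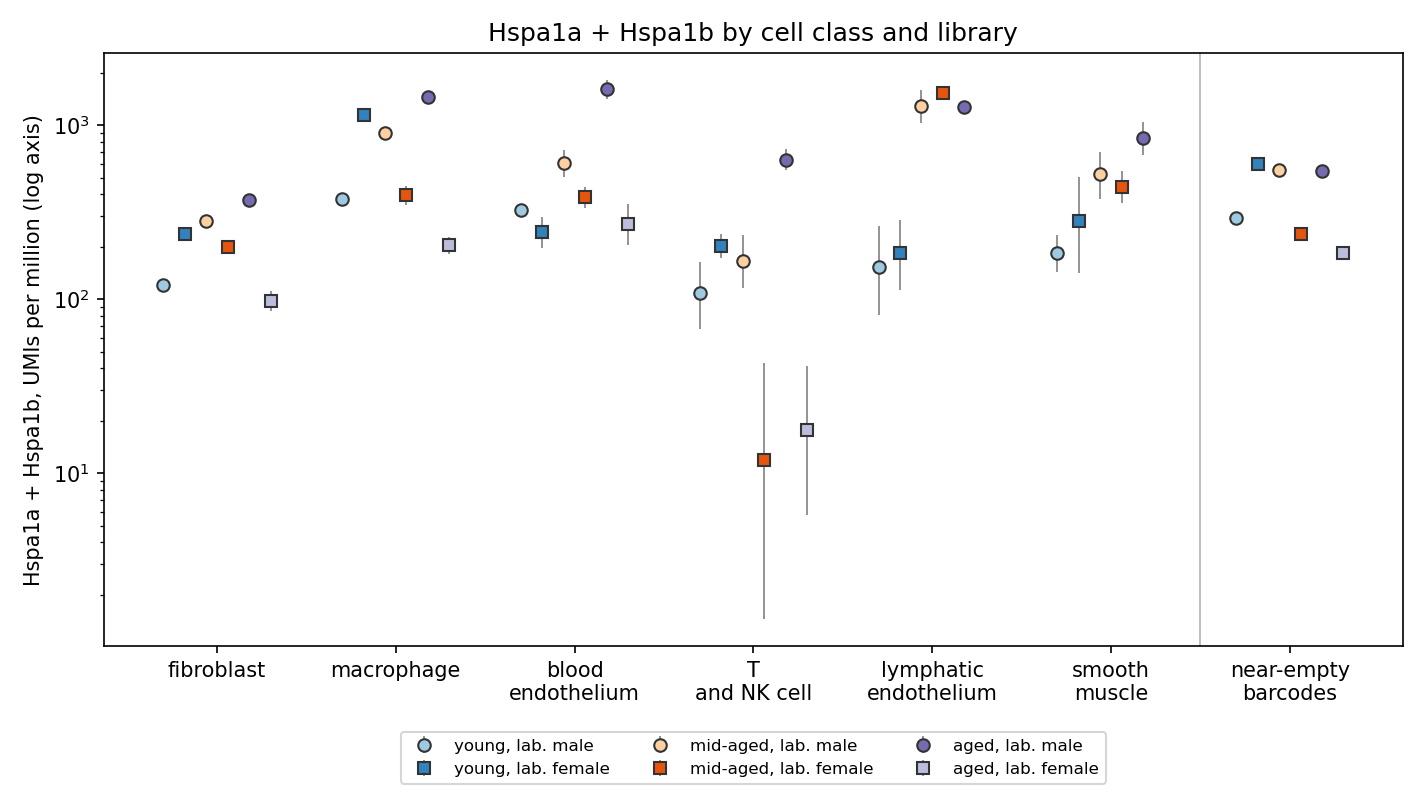
Hspa1a plus Hspa1b in CPM (log axis) by cell class, with 1 symbol per library and near-empty barcodes at the right. Points are library-by-class sums, and bars are 95% exact Poisson intervals that cover counting error only. Aged male is the highest library in fibroblasts, macrophages, blood endothelium and T and NK cells, at 373, 1449, 1610 and 635 CPM.

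RNA outside cells held these transcripts too. Near-empty barcodes, with 10 to 100 UMIs, had 291, 598, 555, 235, 549 and 184 CPM of Hspa1a plus Hspa1b. Those values lay above fibroblasts and below macrophages in each library. Markers of dissociation and immediate early response, 23 genes, summed to 17860, 17439, 16809, 14980, 19291 and 17272 CPM in fibroblasts, also highest in aged male. In macrophages the same list summed to 19105, 18987, 25158, 22368, 22053 and 15192 CPM, highest in the library labelled middle-aged male. In blood endothelium it summed to 26118, 25137, 21228, 22790, 20647 and 14856 CPM. There young male was highest, and aged male lay above aged female only. The part of free RNA and of dissociation in the library differences of Hspa1a and Hspa1b was not tested.

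Within cells, Hspa1a was read after thinning each cell to 1000 UMIs. A UMI of Hspa1a was then seen in 16.1%, 32.0%, 22.9%, 14.8%, 28.4% and 11.4% of macrophages, against 24.5%, 47.8%, 34.7%, 60.2%, 51.0% and 30.6% before thinning. A thinned barcode made of free RNA alone would show one in 13.9%, 26.8%, 23.4%, 9.46%, 22.3% and 7.22% of cases. The macrophage share was above that level in 5 libraries and below it in the library labelled middle-aged male. In fibroblasts the thinned share was 5.71%, 9.08%, 10.2%, 7.59%, 11.9% and 6.54%, below the free RNA level in each library. Free RNA itself was estimated, from markers of other classes, at 0.496% to 4.12% of the UMIs of fibroblast sums, so the level for a barcode of free RNA alone is a reference and not the amount in these cells. The unthinned fibroblast share ran from 15.6% to 44.3%, and thinning left out 1 to 63 fibroblasts and 0 to 131 macrophages per library. No class here is known to lack Hspa1a, so free RNA alone was used as the reference.

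Hspa1a and Hspa1b were often found in the same cells. Of aged male macrophages with a UMI of Hspa1a, 53.2% had one of Hspa1b, against 17.3% of those without. In young male macrophages the shares were 29.7% and 6.65%, while in those of the library labelled middle-aged female, with 88 cells, they were 15.4% and 18.7%. In aged male T and NK cells, 10 of 13 cells with Hspa1a had Hspa1b (76.9%), against 3.91% of the 128 without. A few cells carried much of that class: the variance of Hspa1b over its mean was 14.8, and 1 cell held 28 of its 1000 UMIs as Hspa1b. Reads that the near-identical copies share may have been counted to either, and the part of this in the shares was not tested.

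The constitutive Hspa8 differed less. In fibroblasts it stood at 1398, 1346, 1599, 1564, 1674 and 1140 CPM, and the highest library was 1.47 times the lowest. In macrophages it stood at 2119, 2132, 2430, 2286, 2420 and 1665 CPM, above fibroblasts of the same library each time. In blood endothelium it stood at 2431, 1904, 2021, 2409, 2609 and 1332 CPM. Aged female was the lowest library in these 3 classes, and the highest-to-lowest ratio was 1.96 in blood endothelium.

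Hsph1, the exchange factor, was a low-count gene with a steep library order. It stood at 62.8, 53.9, 62.6, 28.9, 79.6 and 43.0 CPM in fibroblasts and at 50.9, 60.1, 51.3, 11.1, 80.9 and 45.9 CPM in macrophages. Blood endothelium had 41.4, 31.9, 98.8, 29.8, 151 and 46.7 CPM, and T and NK cells had 49.0, 83.4, 93.1, 35.8, 135 and 71.0 CPM. Aged male was highest and the library labelled middle-aged female lowest in all 4 classes. That library held the fewest cells and the deepest ones.

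Hsp90aa1 followed the same upper end in part. In fibroblasts it stood at 586, 930, 961, 1114, 1267 and 612 CPM, and in macrophages at 721, 1456, 1106, 940, 1409 and 724 CPM. Aged male led in fibroblasts and young female in macrophages. In blood endothelium it stood at 892, 873, 1097, 1299, 1534 and 435 CPM, a highest-to-lowest ratio of 3.53. The aged pair again held both ends there. In T and NK cells it ran only from 543 to 956 CPM, with young male highest.

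Dnajb1, the Hsp40 partner, did not lead in aged male fibroblasts: they stood at 183, 133, 119, 110, 147 and 78.0 CPM, with young male highest. Its macrophages stood at 105, 172, 155, 63.2, 165 and 100.0 CPM. In blood endothelium Dnajb1 was at 315, 341, 203, 261, 258 and 122 CPM, with both young libraries above the other 4. Mast cells had the highest mean of Dnajb1 of any class, 583 ± 61.2 CPM (SD, n = 3), and dendritic cells the lowest, 59.5 ± 19.1 CPM (SD, n = 4).

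The genes of the mitochondrial pair had different library orders in fibroblasts. Hspd1 stood at 122, 142, 178, 228, 209 and 171 CPM in fibroblasts, where both aged and both middle-aged libraries lay above both young ones. Hspe1 stood at 213, 297, 361, 248, 266 and 256 CPM there, with young and older libraries overlapping. In macrophages Hspd1 was at 116, 95.1, 83.2, 56.9, 105 and 142 CPM and Hspe1 at 218, 252, 175, 94.8, 184 and 236 CPM. The library labelled middle-aged female was lowest for both there.

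Hspb1 varied mostly by cell class. Fibroblasts had 161, 89.7, 139, 134, 161 and 53.3 CPM and macrophages 18.3, 22.5, 23.1, 14.2, 38.1 and 14.6 CPM. Blood endothelium had 1668, 1500, 1304, 1020, 1358 and 874 CPM. T and NK cells had 4, 6, 1, 0, 1 and 0 UMIs, so that no library exceeded 19.6 CPM. The lowest endothelial sum was thus above the highest sum of the other 3 classes. Near-empty barcodes had 161 to 267 CPM of Hspb1, above every macrophage sum. They also lay above the fibroblast sum of the same library each time.

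Ranked over the 9 genes and these 4 classes, 36 gene and class pairs, aged male was the highest library 23 times and the lowest 0 times. The library labelled middle-aged female and aged female were each lowest 14 times and highest 1 time. Young male was highest 4 times and young female 5 times. Aged male led all 4 classes for both Hspa1a and Hspa1b, near-identical copies that enter these counts as separate genes. The ranking was not made over all genes, so nothing particular to the 9 is read from these counts. Levels were also measured as log2 CPM from the class mean over libraries, as means of the 4 classes. Aged male lay at 1.75 for Hspa1a, 1.81 for Hspa1b, 0.96 for Hsph1, 0.49 for Hsp90aa1 and 0.38 for Hspb1. For Dnajb1 it lay at 0.36, for Hspd1 at 0.35, for Hspa8 at 0.27 and for Hspe1 at 0.20. Aged female lay above the class means for Hspd1, at 0.25, and below them at -1.33 for Hspa1b, -0.59 for Hsp90aa1, -0.51 for Dnajb1 and -0.39 for Hspa8. Hsph1 and Hspe1 were lowest in the library labelled middle-aged female, at -1.15 and -0.52. The Hspa1a means rest in part on T and NK cells. There aged male lay at 3.38 and aged female, with 0 UMIs of Hspa1a, at -5.23. In the other classes aged male lay at 0.76 to 1.75 for Hspa1a and aged female at -0.65 to -1.32.

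**Figure D2:**
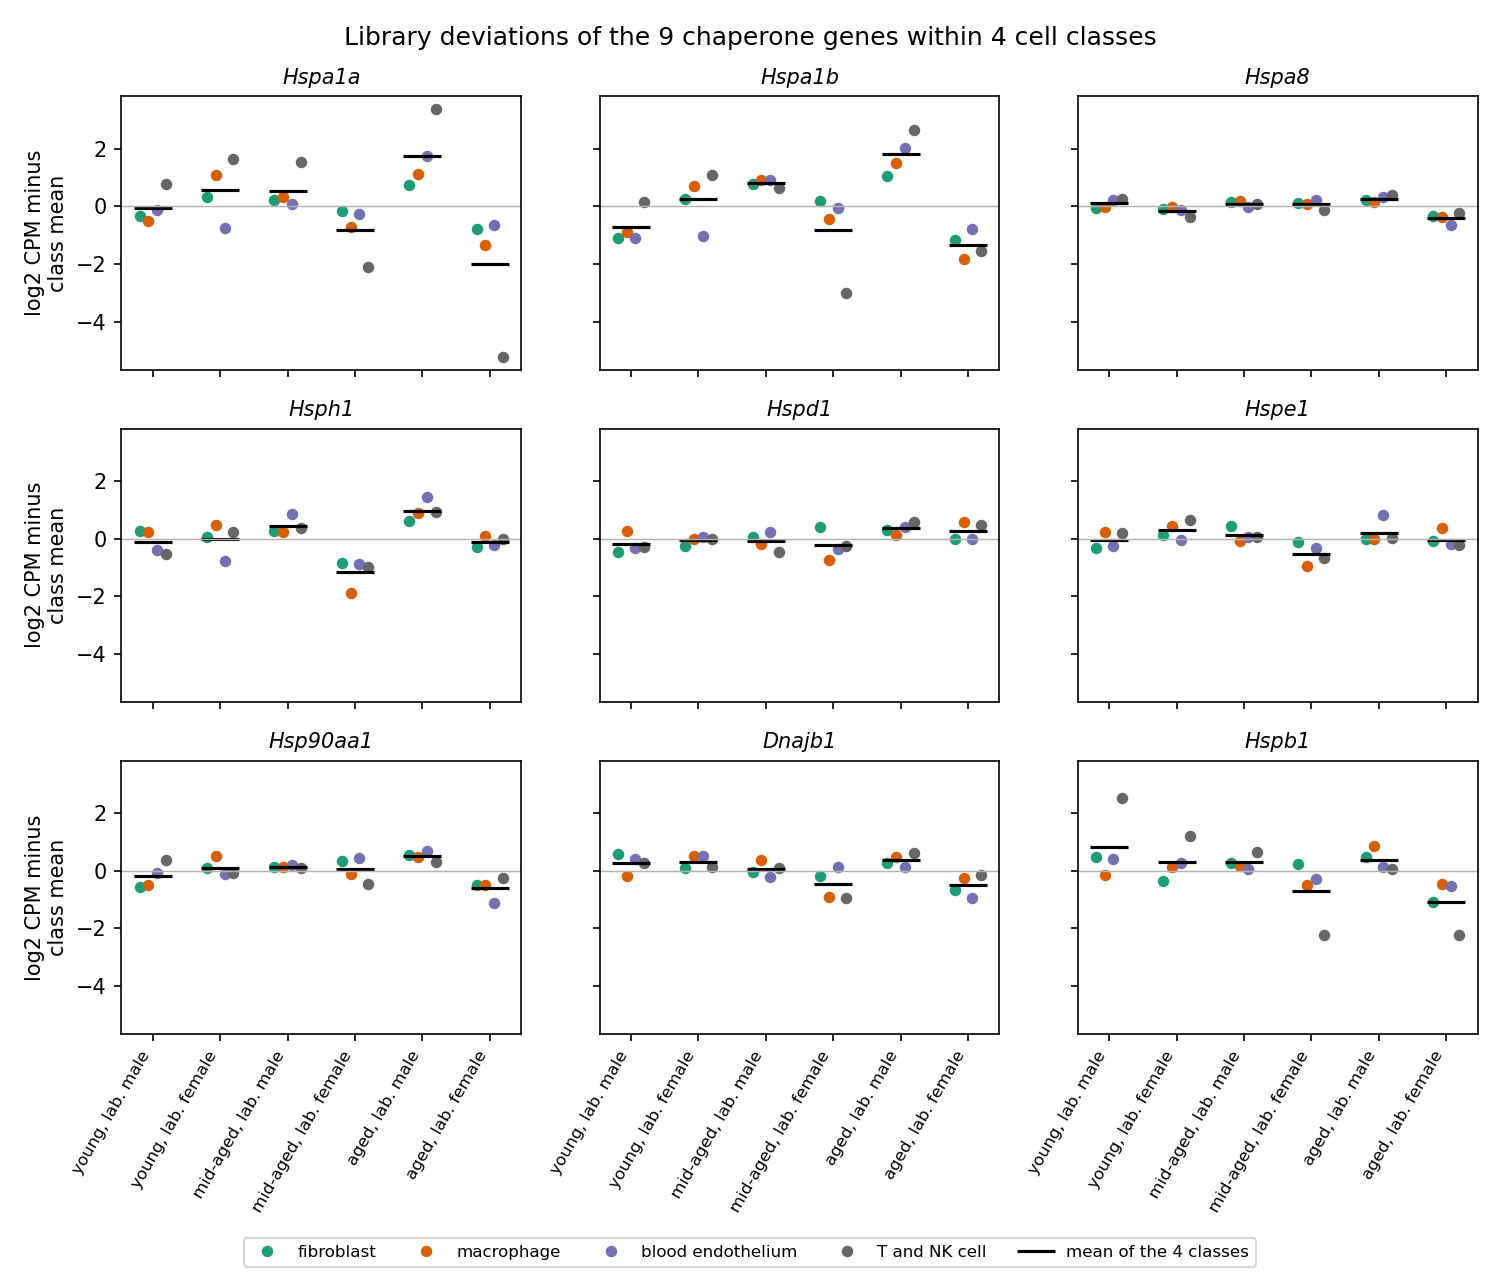
Each panel is a gene, and the y axis is log2 CPM of a library minus the mean of its cell class over the 6 libraries. Points are the 4 classes and black bars their mean. Aged male lies at 1.75 and 1.81 for Hspa1a and Hspa1b, and the T and NK points of these genes spread widest.

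The share of variation that lay between libraries and between classes was then measured over the 24 sums of these 4 classes. Libraries took 69.1% of the sum of squares of log2 CPM for Hsph1, 51.4% for Hsp90aa1 and 49.0% for Hspa1b, and classes took 10.8%, 13.2% and 29.8%. In these 3 genes the library share was the larger, against 16.6% of the 4720 genes compared. Hspa1a had 31.1% between libraries and 44.5% between classes, Hspa8 37.3% and 50.5%, and Dnajb1 32.5% and 45.6%. The Hspa1a shares rest in part on T and NK cells, where aged female had 0 UMIs of that gene. Hspd1 and Hspe1 had 21.0% and 21.2% between libraries. Hspb1 had 4.13% between libraries and 91.4% between classes. The median over the 9 genes was 32.5% for libraries and 45.6% for classes, against 12.3% and 66.8% over all genes compared. The library share takes in age, supplier, handling and depth together, which cannot be told apart with 2 libraries per age.

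**Figure D3:**
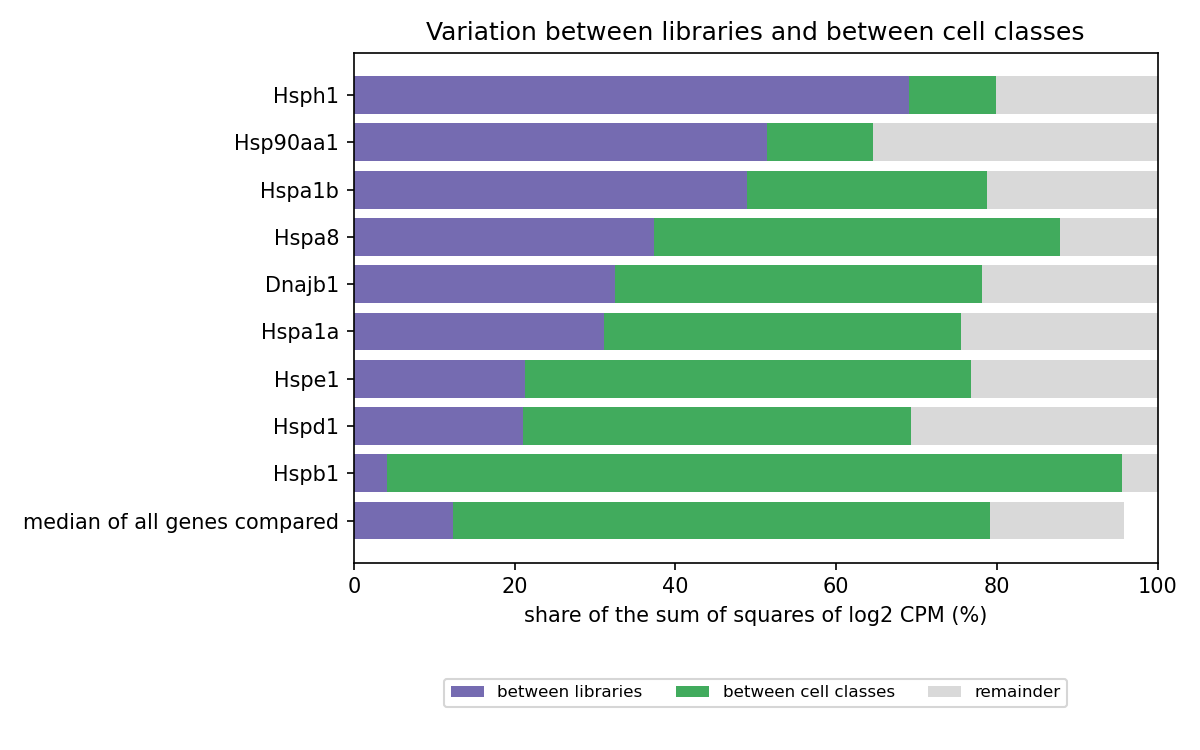
Share of the sum of squares of log2 CPM that lies between libraries, between cell classes and in the remainder, for each gene over 24 library-by-class sums. Hsph1 has the largest library share, 69.1%, and Hspb1 the smallest, 4.13%. The last bar shows medians of 4720 genes for each share, which need not add to 100%.

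By age the 9 genes gave no common direction in the 4 well-filled classes. In edgeR, aged against young, 0 of 9 passed in fibroblasts (0% of 11915 genes passed) or macrophages (0% of 9558). At an unadjusted p under 0.05 there were 0 of 9 in either class, against 680 and 340 of all genes. Of middle-aged against young, 0 of 9 passed in the same classes, where 0% of all genes passed. At an unadjusted p under 0.05 there were 1 and 0 of the 9, against 1034 and 1106 of all genes. DESeq2 called 0 of the 9 in each of these comparisons. In aged against young blood endothelium 0 of 9 passed (0.0598% of 5013 genes), and in T and NK cells 0 of 8 (0% of 3782). At an unadjusted p under 0.05 there were 4 of 9 and 0 of 8, against 397 and 287 of all genes. Middle-aged against young gave 0 of 9 in blood endothelium (0% of genes) and 0 of 8 in T and NK cells (0.0264%). At the unadjusted threshold there was 1 chaperone gene in each, against 515 and 349 of all genes. DESeq2 called 0 of the chaperone genes in these comparisons as well. For DESeq2 the share of all genes is not given, and nothing is read from its counts. Hspb1 was too low to be tested in T and NK cells.

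The fitted log2 differences of aged against young, with their standard error (SE), were 0.16 ± 0.50 for Hspa1a and 0.66 ± 0.71 for Hspa1b in fibroblasts. In macrophages they were -0.09 ± 0.76 and 0.58 ± 0.92. In blood endothelium Hspa1b stood at 2.23 ± 0.63, Hspa1a at 1.33 ± 0.55, Hsph1 at 1.25 ± 0.57 and Dnajb1 at -0.85 ± 0.36. These 4 are the endothelial genes at an unadjusted p under 0.05. The level rests on aged male: without aged female, Hspa1a at 2.09 and Hspa1b at 3.06 passed in blood endothelium, and without aged male Hspa1a stood at -0.38. Over all 9 genes the median log2 difference was 0.03 in fibroblasts, 0.01 in macrophages and 0.31 in blood endothelium, against medians of all genes between -0.01 and 0.01.

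Taken library by library, both aged libraries lay above or below both young ones for 1 of 9 genes in fibroblasts (Hspd1, above), against 36.1% of the 6069 genes of at least 20 CPM. In macrophages this held for 0 of 9, against 31.6%. In blood endothelium it held for 4 of 9, against 36.2%, with Hspa1b and Hsph1 above and Dnajb1 and Hspb1 below. In T and NK cells it held for 3 of 9, against 42.5%. For the middle-aged pair the counts were 4 of 9 in fibroblasts (46.1%), 3 in macrophages (55%), 4 in blood endothelium (41.9%) and 3 in T and NK cells (35.6%). The fibroblast and macrophage counts of the aged pair lay below the background, and nothing particular to the 9 genes is read from any of them.

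Whether the aged shift differed between these 4 classes was tested as an interaction of age and class. In edgeR, 0 of 9 genes passed in any class (0% of 9810 genes). At an unadjusted p under 0.05 there were 2 of the 9 in blood endothelium, 2 in T and NK cells, 1 in macrophages and 0 in fibroblasts. Of all 9810 genes, 501, 785, 438 and 447 stood there, in the same order of classes. The endothelial ones among the 9 were Hspa1b, with a log2 of 1.30 beyond the other classes, and Hsph1, with 0.97.

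The wall of the vessel gave fewer cells. In lymphatic endothelium Hspa1a had 6, 4, 26, 499 and 370 UMIs in the first 5 libraries, or 70.7, 36.8, 395, 608 and 462 CPM. Hspa1b had 7, 16, 59, 765 and 650 UMIs, or 82.5, 147, 897, 932 and 811 CPM. Both young libraries lay below both middle-aged libraries and aged male for each gene. How many of all genes keep such an order in this class was not counted, and nothing is read from it. The 4 aged female cells were not read. The near-empty barcodes of the same libraries had 149, 312, 267, 99.4 and 253 CPM of Hspa1a, so the young sums of Hspa1a lay below free RNA and the other 3 above it.

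In these cells Hspd1 stood at 106, 73.7, 228, 175 and 384 CPM and Hsp90aa1 at 1261, 1271, 1885, 1560 and 2497 CPM. In both cases the young libraries were lowest, an order that was not counted over all genes. Hspb1 stood at 1203, 571, 1171, 1015 and 995 CPM and Dnajb1 at 224, 387, 137, 331 and 230 CPM, with ages overlapping. With sums of at least 10 cells, a limit added after the data were seen, the fitted log2 difference of aged against young was 3.17 ± 0.52 (SE) for Hspa1a, 2.84 ± 0.43 for Hspa1b and 2.15 ± 0.47 for Hspd1. These 3 of 9 genes passed in edgeR, beside 2.46% of 2765 genes. Of middle-aged against young, Hspa1a at 3.36 ± 0.49 and Hspa1b at 3.04 ± 0.40 passed, 2 of 9, beside 0.542% of genes. Nothing is read from these counts, since the direction of Hspa1a and Hspa1b helped choose the genes. The aged side is aged male alone, and the count of aged against young ran from 2 to 5 when libraries were left out in turn, with 5 without the library labelled middle-aged male. The count of middle-aged against young fell to 0 without aged male. With labelled sex in the model Hspd1 stood at 1.93 in aged against young and lost its call. The median log2 difference of the 9 genes was 1.16, against -0.03 over all genes. That median takes in Hspa1a and Hspa1b, whose direction helped choose the genes, so nothing is read from it.

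Lymphatic marker genes, 6 in all, summed to 5387 CPM in young female, 2725 CPM in the library labelled middle-aged female (where 4 of the 6 had UMIs) and 2168 CPM in aged male, so the gated cells carried the markers unequally. Per cell at 1000 UMIs, Hspa1a was seen in 0 of 13 young male cells (95% exact binomial interval 0% to 24.7%), 1 of 20 young female cells (5%, 0.127% to 24.9%) and 1 of 16 in the library labelled middle-aged male (6.25%, 0.158% to 30.2%). It was seen in 22 of 76 cells of the library labelled middle-aged female (28.9%, 19.1% to 40.5%) and 24 of 87 in aged male (27.6%, 18.5% to 38.2%). Free RNA alone would show it in 13.9%, 26.8%, 23.4%, 9.46% and 22.3% of cases. The share thus lay above that level in the last 2 libraries and below it in the first 3, although the sum over all UMIs of the library labelled middle-aged male lay above free RNA. Aged male lay within its interval of the free RNA level. Before thinning the shares were 30.8%, 15%, 44.4%, 63.2% and 66.7%. In the library labelled middle-aged female the variance over the mean was 11.8, and 1 cell held 25 UMIs of Hspa1a. In aged male the same ratio was 1.59.

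**Figure D4:**
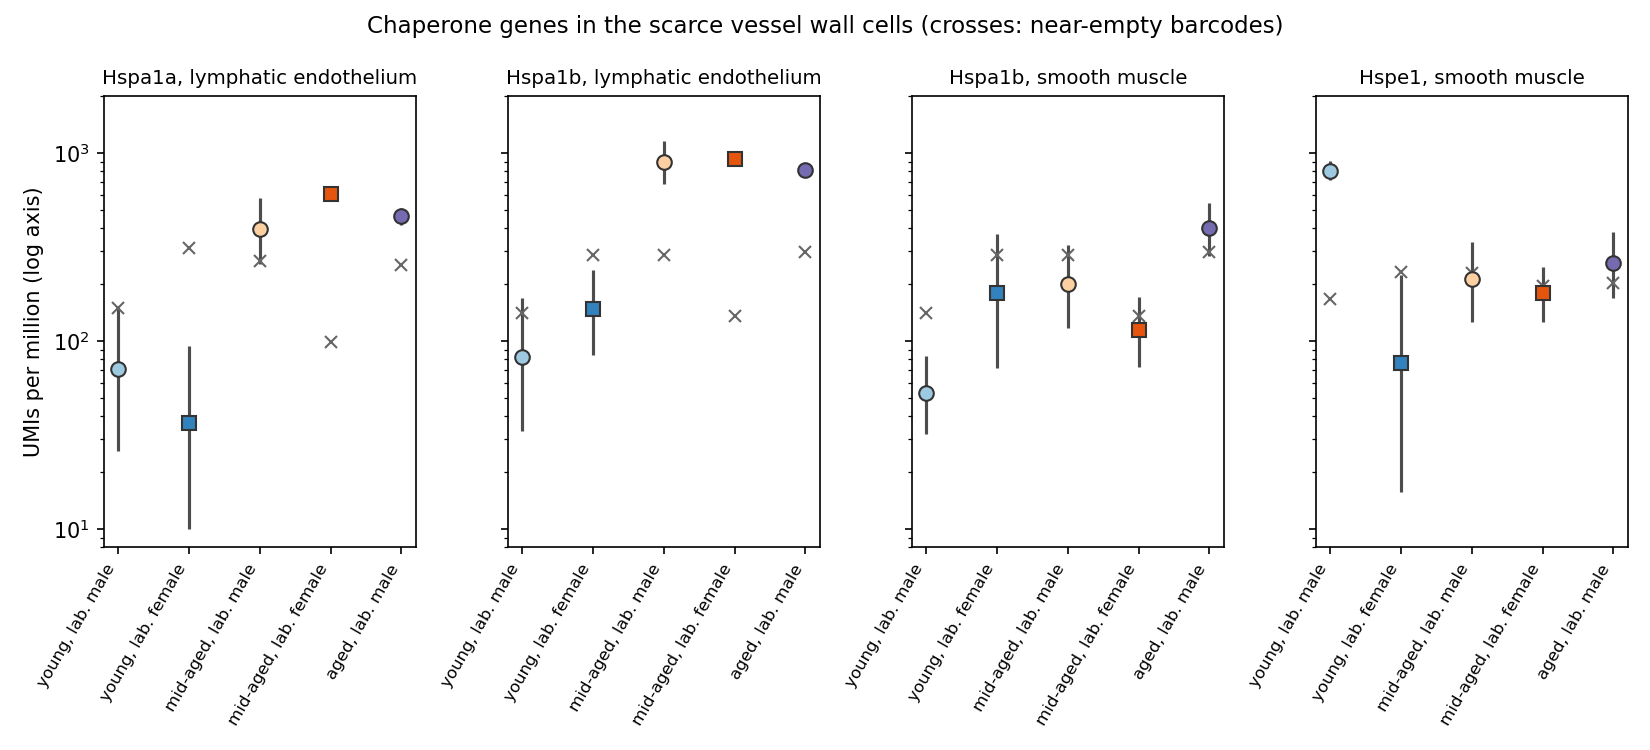
Hspa1a and Hspa1b in lymphatic endothelium, and Hspa1b and Hspe1 in smooth muscle, in CPM (log axis) for 5 libraries, with aged female left out for its 3 and 4 cells. Points are sums with 95% exact Poisson intervals and crosses are near-empty barcodes. Young lymphatic sums of Hspa1b are at 82.5 and 147 CPM and the other 3 at 811 to 932 CPM, and Hspe1 in smooth muscle is highest in young male at 807 CPM.

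In smooth muscle Hspa1b had 19, 7, 17, 23 and 40 UMIs in the same 5 libraries, or 53.1, 179, 201, 115 and 399 CPM, with aged male highest. Hspd1 stood at 637, 230, 130, 150 and 279 CPM and Hspe1 at 807, 76.8, 213, 179 and 259 CPM. Young male was the highest library for both parts of the chaperonin. The 4 sums of at least 20 cells left 1 residual degree of freedom. In them Hspa1b stood at 2.70 ± 0.74 (log2, SE) in aged against young, 1 of 9 passing beside 1.02% of 3517 genes. Hspd1 at -2.24 ± 0.57 and Hspe1 at -2.13 ± 0.55 passed in middle-aged against young, 2 of 9 beside 2.33% of genes. Nothing is read from these counts, since higher Hspa1b in aged muscle was among the values known when the genes were chosen. All 3 calls were lost with the young female sum of 12 cells included, without the filter on low counts and in DESeq2.

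In those fits the young side is young male alone and the aged side aged male alone, so the spread between libraries comes from the middle-aged pair only. The young male smooth muscle sum held more fibroblast marker UMIs. Its 8 fibroblast markers summed to 4948 CPM, against 413 to 1849 CPM in the other 3 sums, and free RNA was estimated at 15.7% of it. Fibroblasts of young male had 122 CPM of Hspd1 and 213 CPM of Hspe1, and its near-empty barcodes had 62.9 and 168 CPM, all below the muscle sum.

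Cell class preference was tested over 44 sums of 9 classes with the library as a blocking term, so that a shift of a whole library is taken out. Each value is the log2 difference of a class from the mean of the other 8. Of 81 gene and class pairs 28 passed in edgeR, beside 38.3% of all 7134 genes' pairs. There were 13 higher (23.2% of all pairs) and 15 lower (15.1%). The share called was near that of other genes. By class, 5 of 9 passed in macrophages (50.8% of all genes), 4 in blood endothelium (48%), 3 each in fibroblasts (57.2%), T and NK cells (46.7%), smooth muscle (39.4%), neutrophils (31.3%) and B cells (26%), and 2 each in dendritic cells (25.2%) and monocytes (19.7%). The pairs that passed under every alternative run numbered 9, and these are given first.

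Hspb1 was the most restricted of the genes. It stood at 1549 ± 301 CPM (SD, n = 4) in smooth muscle and 1287 ± 296 CPM (SD, n = 6) in blood endothelium, against 123 ± 42.9 CPM in fibroblasts, 21.8 ± 8.82 CPM in macrophages and 5.85 ± 7.34 CPM in T and NK cells (each n = 6). Its log2 difference was 4.92 ± 0.27 (SE, edgeR adjusted p = 9.97e-19) in smooth muscle and 4.91 ± 0.22 (4.45e-22) in blood endothelium. These 2 classes differed by less than the spread between libraries. Fibroblasts were higher than the mean of the other classes as well, by 1.31 ± 0.25 (edgeR adjusted p = 1.94e-05). That mean takes in T and NK cells at 5.85 CPM, and fibroblast sums lay below the near-empty barcodes of each library. T and NK cells were lower by a log2 of -3.60, and macrophages by -1.45, but both calls were lost after thinning sums to a common depth. Epithelium, with 763 ± 184 CPM (SD, n = 3), was too scarce for the fit.

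Hspa1a was higher in macrophages, by a log2 of 1.42 ± 0.27 (SE, edgeR adjusted p = 2.86e-05), and lower in T and NK cells, by -1.43 ± 0.37 (0.00162). Macrophages had 406 ± 262 CPM and T and NK cells 88.2 ± 111 CPM (SD, n = 6). Hspa1b was also higher in macrophages, at 1.25 ± 0.26, a call lost only after thinning (adjusted p = 0.15). Mast cells had the highest mean of both genes summed, 1416 CPM, over 3 libraries that ran from 172 to 3631 CPM. Blood endothelium at 0.78 ± 0.30 and fibroblasts at -0.76 ± 0.32 passed for Hspa1a, and both calls were lost under several alternatives.

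Hspa8 was higher in macrophages, by a log2 of 0.52 ± 0.11 (SE, edgeR adjusted p = 1.14e-04). It was lower in B cells, by -0.72 ± 0.15 (3.55e-04), and in neutrophils, by -0.64 ± 0.15 (9.54e-04). Smooth muscle had its highest mean, 2618 ± 418 CPM (SD, n = 4), and neutrophils its lowest, 1014 ± 452 CPM (SD, n = 4). Macrophages with 2175 ± 284 CPM and blood endothelium with 2118 ± 468 CPM (SD, n = 6) differed by less than the spread between libraries.

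Dnajb1 was higher in blood endothelium, by a log2 of 1.04 ± 0.18 (SE, edgeR adjusted p = 6.88e-06), and that call held in all alternatives run. Blood endothelium had 250 ± 79.2 CPM (SD, n = 6). It was lower in dendritic cells, at -1.08 ± 0.29, and in monocytes, at -0.94 ± 0.31. Its higher value in smooth muscle, 0.82 ± 0.25, was lost without the library labelled middle-aged female and with sums of at least 10 cells. Hsp90aa1 passed only in macrophages, at 0.41 ± 0.15, and lost that call under several alternatives. Hsph1 passed in none of the 9 classes, with a log2 of 0.83 ± 0.38 in smooth muscle (edgeR adjusted p = 0.0813).

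For the mitochondrial pair, Hspd1 was higher in smooth muscle by a log2 of 1.05 ± 0.29 (SE, edgeR adjusted p = 0.00349). That call was lost without young male. Hspe1 was higher in B cells, at 0.75 ± 0.28, and lower in blood endothelium, at -0.76 ± 0.25, and in neutrophils, at -1.14 ± 0.37. Each of the 3 calls was lost under several alternatives. B cells also had the highest mean of Hspe1, 476 ± 217 CPM (SD, n = 4).

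**Figure D5:**
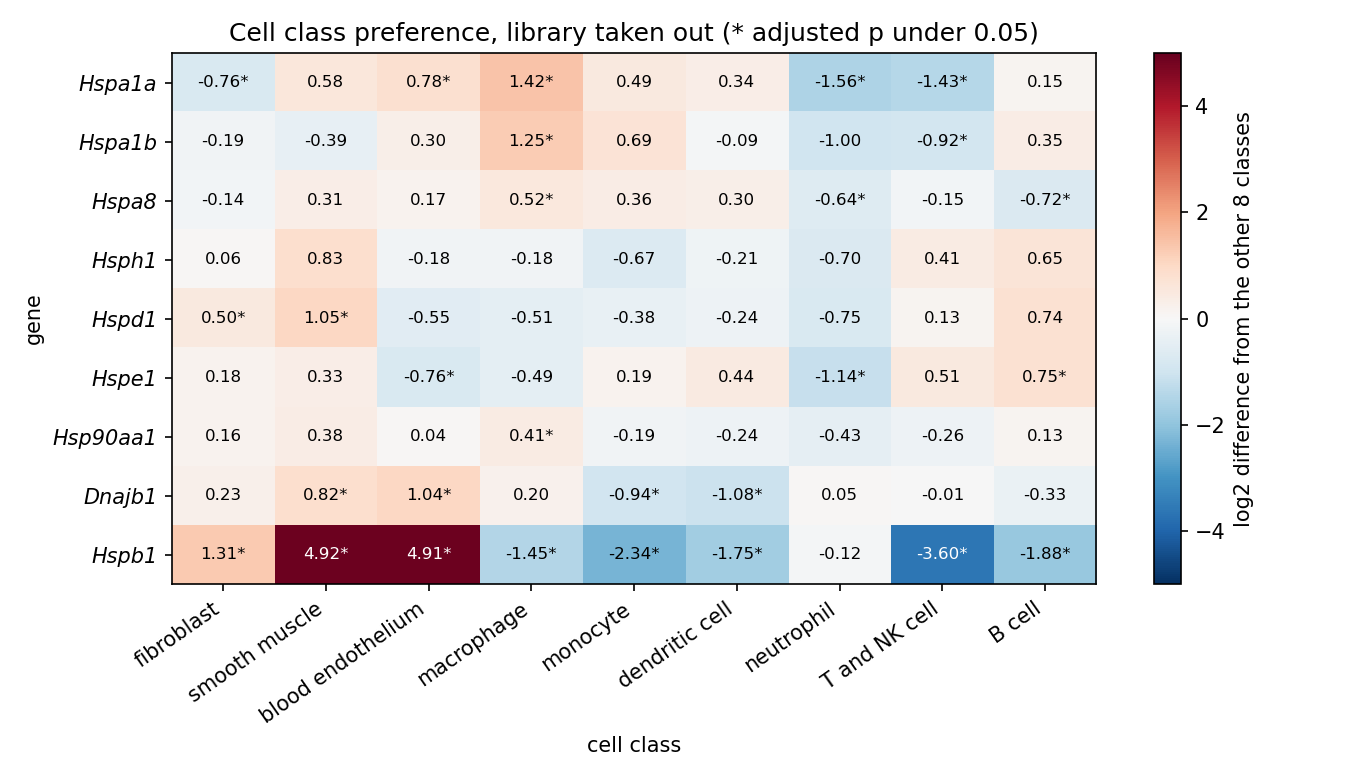
Log2 difference of each class from the other 8 classes, after the library effect is taken out, for 9 genes (rows) and 9 classes (columns). Stars mark an edgeR adjusted p under 0.05. Hspb1 reaches 4.92 in smooth muscle and 4.91 in blood endothelium, and no class is starred for Hsph1.

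Lymphatic endothelium entered this test only with sums of at least 10 cells, an alternative added after the data were seen. There 5 of 9 genes were higher and 0 lower, beside 25.9% of 6554 genes higher. Hspb1 stood at 3.85 ± 0.24 (SE, edgeR adjusted p = 1.73e-19) and Hsph1 at 1.90 ± 0.28 (1.06e-07). Dnajb1 stood at 0.98 ± 0.23 and Hsp90aa1 at 0.72 ± 0.17. Hspa1b stood at 1.55 ± 0.35, a value that takes in the high middle-aged and aged sums by which the genes were chosen, and is no independent result.

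Hsph1 was thus the gene whose lymphatic level stood out most from its level elsewhere, Hspb1 aside. Its lymphatic sums held 17, 16, 14, 159 and 355 UMIs, or 200, 147, 213, 194 and 443 CPM. In each of these 5 libraries that was above fibroblasts, macrophages, blood endothelium and T and NK cells of the same library. The highest of those others was 151 CPM, in aged male blood endothelium.

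Other genes of the chaperone system were read from lists. Of 24 cytosolic chaperones and co-chaperones induced with heat shock, 23 could be tested for preference. Smooth muscle had 6 higher and 0 lower (39.4% of all genes passed in either direction), among them the small heat shock protein Cryab (log2 4.14 ± 0.31), the Hsp40 Dnajb4 (1.78 ± 0.27) and the collagen chaperone Serpinh1 (2.39 ± 0.37). Fibroblasts had 8 higher and 3 lower (57.2% of all genes), led by Hspb8 (4.27 ± 0.23), Cryab (3.94 ± 0.22) and Serpinh1 (4.40 ± 0.25). Macrophages had 6 higher and 4 lower (50.8%), with the stress-induced Zfand2a at 2.36 ± 0.19 and Serpinh1 at -2.28 ± 0.38. Blood endothelium had 5 higher and 4 lower (48%), with the Hsp70 co-chaperone Bag3 at 1.36 ± 0.24. T and NK cells had 6 higher and 7 lower (46.7%), neutrophils 5 and 5 (31.3%), dendritic cells 1 and 1 (25.2%), B cells 0 and 5 (26%) and monocytes 0 and 3 (19.7%). Nothing particular to the list is read from these counts. These lists were chosen with earlier results of the data known.

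Of the CCT chaperonin, which folds actin and tubulin, 7 subunits were tested. Smooth muscle had 4 higher and 0 lower (39.4% of all genes passed), with Cct3 at a log2 of 0.96 ± 0.26. The young male muscle sum stood apart, with 1922 CPM of the 7 subunits together. The libraries labelled middle-aged male and middle-aged female had 806 and 971 CPM in muscle and aged male 847 CPM. Fibroblast sums held 782 to 898 CPM. Neutrophils had 0 higher and 5 lower (31.3%), with Cct7 at -1.32 ± 0.32. Of 5 tested mitochondrial chaperones and proteases, Hspa9, the mitochondrial Hsp70, was higher in smooth muscle (1.13 ± 0.22), macrophages (0.62 ± 0.16) and fibroblasts (0.56 ± 0.16) and lower in T and NK cells (-0.59 ± 0.20). The heat shock factors Hsf1 (0.49 ± 0.21) and Hsf2 (1.62 ± 0.23) and the HSF1-binding protein gene Hsbp1 (0.44 ± 0.14) were higher in fibroblasts, 3 of 3 tested, where 57.2% of all genes passed. Hsbp1 was also higher in macrophages (1.39 ± 0.14) and lower in T and NK cells (-0.98 ± 0.19) and monocytes (-0.70 ± 0.24), and Hsf1 was higher in B cells (1.22 ± 0.41). With sums of at least 10 cells Hsf1 and Hsf2 did not pass the filter on low counts, and Hsbp1 kept its call in fibroblasts. By age, 0 of 24 co-induced genes, 0 of 10 mitochondrial genes and 0 of 3 heat shock factor genes passed in edgeR in fibroblasts or macrophages, aged or middle-aged against young. Of all genes tested there, 11915 in fibroblasts and 9558 in macrophages, 0% passed. Nothing particular to the lists is therefore read from these age counts. The median log2 difference of the 24 co-induced genes in aged against young was 0.03 in fibroblasts and 0.05 in macrophages.

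The genes whose library pattern was most like that of the 9, after class means were taken out, were 4921524J17Rik (Pearson r = 0.73), Fndc1 (0.72), Vcan (0.72), Rab21 (0.72), Tsc22d3 (0.70), Gfpt2 (0.70), Tmem131 (0.70) and Pcolce2 (0.69), each over 24 sums. Not all had aged male highest in mean CPM over the classes. Gfpt2 (660 against 489 in aged male) and Vcan (134 against 109) were highest in the library labelled middle-aged female. Tsc22d3 (279 against 238) was highest in the library labelled middle-aged male. The rest of those named were highest in aged male. The 9 genes themselves ran from 0.40 (Hspd1) to 0.89 (Hspa1b) with their own mean, which contains them. The most alike by class pattern, after library means were taken out, were Ctdsp1 (0.85), Trim37 (0.81), Gopc (0.78), Gstt2 (0.78), Ate1 (0.77), Apopt1 (0.76), Ankrd40 (0.76) and R3hdm2 (0.75). All but R3hdm2 had means of 30.4 to 41.3 CPM, near the limit of 30 CPM. By class pattern the 9 genes ran from -0.13 (Hspe1) to 0.72 (Dnajb1) with their own mean. Hspd1 stood at -1.6e-04 and Hsph1 at 0.13, so the 9 had no common class pattern. The 24 sums share 6 libraries and 4 classes, and so are not independent points.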

How the data were processed

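Per the submitters' processing notes, the authors made the matrices with Cell Ranger 3.0.2 on mm10, and Seurat is named with no role. The deposited values are raw UMI counts per gene and droplet barcode, unfiltered and not normalised, in 6 libraries of 9616652 to 28921825 UMIs. The labels name 10x 3′ v2 chemistry, while 6794880 barcodes per library are those of a later kit. The 31053 gene IDs were summed to 31017 symbols.

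Genes and lists were chosen with earlier results of these data known, and the gate was set after the data were seen. Kept barcodes were gated by scaled UMIs of 111 markers in 17 classes (best class at least 1.25 times the next, with 2 distinct markers). There were 1207 barcodes just inside and 1216 just outside the gate, and 183 muscle-gated barcodes were left out for epithelial UMIs. Scrublet (scanpy 1.11.5, expected 6%) marked 590 barcodes (2.41%), which were removed only in an alternative.

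UMIs were summed per library and class of at least 20 cells and tested with edgeR 4.0.16 under R 4.3.3 (TMM, filterByExpr, quasi-likelihood F test, adjusted p under 0.05 by Benjamini-Hochberg over all genes tested). DESeq2 1.42.0 was an alternative. Log2 CPM used a prior count of 2. All 9 genes were named. From lists, up to 3 called genes of smallest p were named per comparison, and the 8 genes most like the 9 had at least 30 CPM. Simulated counts with planted changes were run through some fits only. These were aged against young in fibroblasts, macrophages, blood endothelium and T and NK cells, and the preference of macrophages. Smooth muscle, lymphatic endothelium and the interaction were not simulated. The simulated counts held no shift of a whole library, so they do not cover the library differences described here. Replicate numbers came from accession order and pair nothing. Intervals are 95% and cover counting error only. Coordinates are GENCODE M21 on GRCm38. Python 3.11.15, numpy 2.4.6, pandas 2.3.3, scipy 1.17.1 and matplotlib 3.10.9 were used.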

Additional observations from a re-analysis of the deposited data

How the results depend on the processing

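No paired analysis was possible because replicate numbers follow accession order. Labelled sex, which both middle-aged libraries go against, was tried as a term in the model instead. The count of smooth muscle genes called fell from 1 (aged against young) and 2 (middle-aged against young) to 0 with no filter on low counts, with sums of at least 10 cells and in DESeq2. In blood endothelium it went from 0 to 2 (aged) and 1 (middle-aged) with no filter, and ran from 0 to 2 and from 0 to 1 with libraries left out in turn. In lymphatic endothelium with at least 10 cells it ran from 2 to 5 (aged) and from 0 to 2 (middle-aged) with libraries left out, and DESeq2 called 1 in middle-aged. Shares of all genes under these alternatives are not given, and nothing is read from the counts. With labelled sex in the model, aged against young turned to -0.0102 for Hspa1a in fibroblasts, -0.15 for Hspa1b in macrophages, and -0.50 for Hspa1a and -0.31 for Hspa1b in T and NK cells. With each library left out in turn, Hspa1a ran from -0.96 to 0.76 and Hspa1b from -0.999 to 1.40 in fibroblasts, from -1.90 to 0.91 and -2.04 to 1.59 in macrophages, and Hspa1a from -0.38 to 2.09 in blood endothelium. In T and NK cells they ran from -7.68 to 1.80 (0 UMIs of Hspa1a in aged female, so no measure of size) and from -2.63 to 1.65. The lowest of these values arose without aged male. The cause was not tested. Class preference counts ran from 22 to 31 with libraries left out, and of 383 preference values under alternatives 322 kept direction and call, 61 lost the call and 0 reversed. Not run were smooth muscle at 5% mitochondrial UMIs, which could not be fitted, and lymphatic endothelium at 20 cells, whose 3 sums leave no residual degree of freedom. Depth limits the scarce classes most: young lymphatic sums of Hspa1a and Hspa1b hold 4 to 16 UMIs.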
